A study of Homo sapiens with 2 samples.

Results

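The vault is a large ribonucleoprotein particle of the cytoplasm, and the genes described here encode its RNAs and its proteins. The list held 6 genes, all named vault components: the vault RNAs VTRNA1-1, VTRNA1-2 and VTRNA1-3, and the protein genes MVP, TEP1 and PARP4. This set was chosen by the log2 differences of its measured genes between the 2 arrays, known from earlier results of these data. A named probe measured 5 of these 6, out of 18417 genes in all. The platform annotation used here paired no probe with TEP1, so its level was not analysed here. VTRNA2-1, a related gene whose RNA is not part of the vault, had no singly named probe either. Expression had been measured in HepG2, an established human hepatoma (liver cancer) cell line, grown in MEM medium. 1 array held RNA of control cells, for which the labels name no treatment. The other held RNA of cells exposed for 24 h to 100 mg/L of amorphous silica nanoparticles (SiO2-NP) prepared in the same medium. Each group was 1 array, so no value below has a replicate error, no test was possible, and every difference describes these 2 arrays rather than the conditions.

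The shell of the vault is built from many copies of MVP, the major vault protein. TEP1 is an RNA-binding protein that holds the vault RNAs in the particle and was also found with telomerase, and PARP4 is a member of the poly(ADP-ribose) polymerase family bound to MVP. Vault RNAs are short non-coding RNAs made by RNA polymerase III, and much of a cell's vault RNA lies outside the particle. VTRNA1-1 has been reported to bind the autophagy receptor p62 in hepatoma cells, and human MVP is also known as LRP, a protein found at raised levels in drug-resistant tumour cells.

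The 3 vault RNAs were among the most reduced transcripts on the SiO2-NP array, while the transcripts of the measured vault proteins were close to the control. Of 109 other expressed small RNAs, 95 were lower on that array too, most of them by less. VTRNA1-2, VTRNA1-1 and VTRNA1-3 were 2.42-fold, 2.28-fold and 1.66-fold lower. MVP and PARP4 differed by -0.02 and 0.06 on the log2 scale. The question was whether the proteins followed the RNAs, and in these arrays their transcripts did not: the median log2 difference was -1.19 over the 3 RNAs and 0.02 over the 2 protein genes, a gap of -1.21. The members had been chosen with their differences known, so the gap is a description. Protein was not measured. In RNA from a whole culture, fewer cells that hold a transcript and less of it per cell cannot be told apart.

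**Figure D1:**
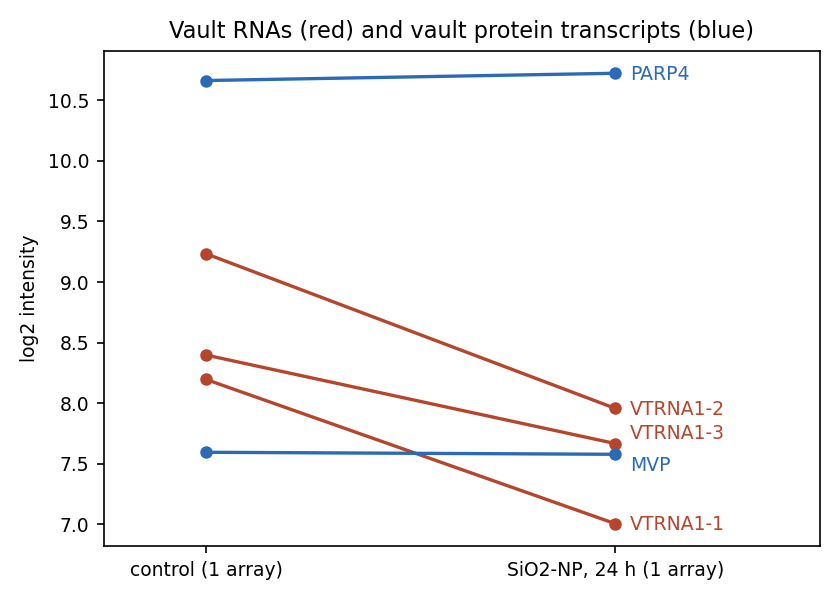
Log2 intensity (vertical axis) of the 3 vault RNAs, in red, and of MVP and PARP4, in blue, on the control and the SiO2-NP array; each line joins the 2 values of 1 probe. The red lines change by -1.28 to -0.73 and the blue lines are nearly flat; heights of different probes cannot be set against each other.

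Values are log2 intensities, 1 per probe and array, and differences are SiO2-NP minus control. A gene was called expressed when its mean over both arrays reached the median over genes, a log2 intensity of 7.26. This is a filter on level and not a detection call. All 5 measured members passed it, and 9209 genes did so in total. VTRNA1-1 passed only through its control value of 8.20, since its value after SiO2-NP was 7.01. Across expressed genes the differences had a median of -0.03 and an SD of 0.16, their central 95% ran from -0.37 to 0.28, and 59.8% were below 0. The log2 intensities of all 33297 probes correlated between the arrays with a Pearson r of 0.994 (probes are not independent replicates). The hepatocyte markers fit the labelled cell line, since all 7 that were measured passed the filter, ALB and AFP among them. Of 5 markers each, 2 leukocyte genes (CD68 and LYZ), 1 fibroblast gene (COL1A1) and 0 endothelial genes passed. The highest leukocyte value was 13.23 in the control and 13.27 after SiO2-NP. That number lies in the range of the hepatocyte markers, 10.97 to 13.50 in the control. Heights of different probes cannot be set against each other. ACTB and GAPDH, often used as references, had log2 intensities of 12.54 and 13.25 in the control and 12.53 and 13.35 after SiO2-NP.

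VTRNA1-1, annotated in RefSeq as a gene of 98 nt, had a log2 intensity of 8.20 in the control and 7.01 after SiO2-NP. On the linear scale these were intensities of 293 and 129, so 43.8% of the control signal was left. Its difference of -1.19 was the 3rd lowest among the expressed genes, a set that it entered only through its control value. VTRNA1-1 is the vault RNA best studied for its role in autophagy, and its probe showed a loss of more than 1 log2 unit.

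VTRNA1-2, a gene of 88 nt, was at 9.23 in the control and 7.96 after SiO2-NP. Its linear intensities were 602 and 249, and 41.3% of the control signal was left. The difference of -1.28 was the 2nd lowest among the expressed genes. Only MTND2P28, a nuclear pseudogene of a mitochondrial gene, had a lower one.

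VTRNA1-3, also of 88 nt, was at 8.40 and 7.67, or 337 and 203 on the linear scale. It kept 60.3% of the control signal. Its difference of -0.73 was the 10th lowest. The loss was therefore smaller than for the other vault RNAs, by 0.46 against VTRNA1-1 and by 0.55 against VTRNA1-2, whereas VTRNA1-1 and VTRNA1-2 lay 0.09 apart. Without replicate arrays it is unknown whether such gaps exceed the spread between cultures. The vault RNAs are similar in sequence, and each probe may read more than 1 of them.

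All 3 vault RNAs passed a 1.5-fold threshold (0.58 on the log2 scale) in the lower direction, and 2 passed 2-fold. Relative to the median of the 109 other expressed small RNAs, VTRNA1-3 was at -0.45 and did not pass, while VTRNA1-1 and VTRNA1-2 did. For comparison, 0.250% of expressed genes passed 1.5-fold in the lower direction (23 of 9209, the 3 vault RNAs among them). The shares were 0.141% in the higher direction (13) and 0.391% in either. Among those 109 small RNAs the share in the lower direction was 5.50% as deposited (6 genes). The split of 23 lower to 13 higher moved to 19 and 19 after centring on the median of expressed genes. With a running median by level it moved to 19 and 21, and with quantile normalization to 18 and 22. At 2-fold, 0.0434% were lower (4 genes, of which VTRNA1-1 and VTRNA1-2 were a pair). The members' own contrast chose them, so these shares are background only. Among the 5.44% of expressed genes nearest in mean level to VTRNA1-1, VTRNA1-2 and VTRNA1-3, differences had SDs of 0.19, 0.17 and 0.17, the member included.

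**Figure D2:**
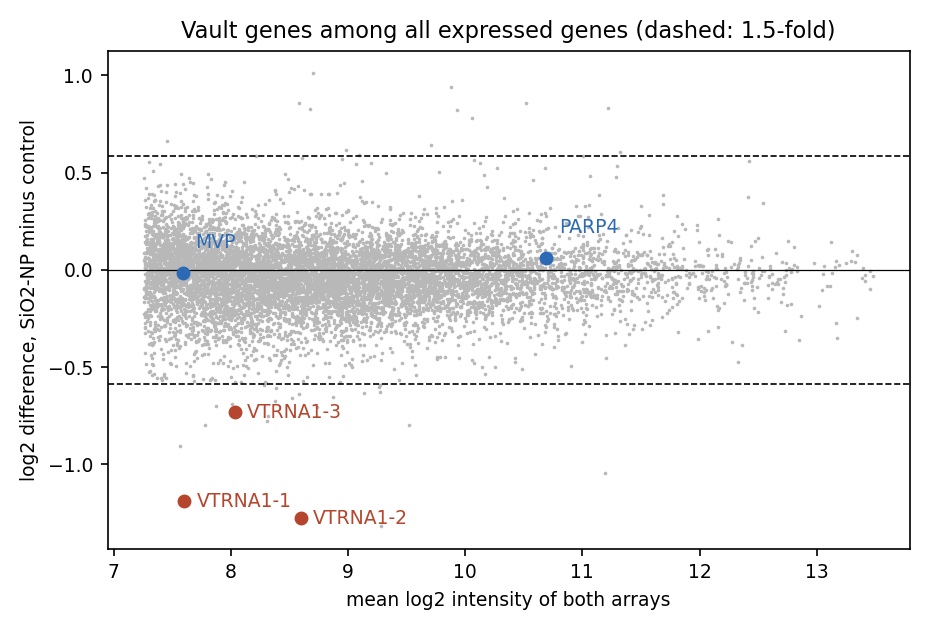
Log2 difference, SiO2-NP minus control (vertical axis), against mean log2 intensity of both arrays (horizontal axis) for the 9209 expressed genes, in grey, with vault RNAs in red and vault protein genes in blue. Dashed lines mark 1.5-fold; the vault RNAs lie below the lower line, at -1.28 to -0.73, and MVP and PARP4 lie in the middle of the cloud.

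MVP, which forms the shell, had a log2 intensity of 7.60 in the control and 7.58 after SiO2-NP, or 193 and 191 on the linear scale. That is 98.9% of the control signal. With 5030 of the 9209 expressed genes below it, its difference of -0.02 lay at percentile 54.6. Its sign is not informative, since centring on the median turned it to 0.01.

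PARP4, the vault poly(ADP-ribose) polymerase, was at 10.66 and 10.72, or 1622 and 1691 on the linear scale. This is 104% of the control signal, and the difference of 0.06 lay at percentile 74.8. The 2 protein genes lay 0.08 apart in their differences. The smallest gap between an RNA and a protein gene, VTRNA1-3 against MVP, was -0.71. Neither protein gene passed 1.5-fold.

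The promoter of MVP is shown because MVP is the vault component whose transcript stayed near the control and for which the sequence table held an entry among the measured members. The sequence is from RefSeq (GRCh38.p14, chr16:29820144-29820393, plus strand) and covers the 250 bases before the first of 3 annotated starts. Capitals mark the CCAAT box, here in its inverted form, the element bound by Y-box factors such as YB-1 and by NF-Y.

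MVP: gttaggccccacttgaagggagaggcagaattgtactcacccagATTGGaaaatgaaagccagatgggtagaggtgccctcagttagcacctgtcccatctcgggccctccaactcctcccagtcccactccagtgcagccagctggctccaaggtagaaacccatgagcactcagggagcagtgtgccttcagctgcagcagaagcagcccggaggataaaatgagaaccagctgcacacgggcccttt

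Both strands were searched for CCAAT, the GC box GGGCGG, the GT box GGGTGG and the TATA box TATAAA. The window held 1 CCAAT box, a motif found in 11240 of the 35116 promoter windows of that length. It held 0 of the other motifs, which occurred in 42.6%, 31.3% and 10.7% of windows. With 1 match, no motifs overlapped. These are letter matches in 1 window, not sites. YBX1, which encodes YB-1, was at 12.40 in the control and 12.38 after SiO2-NP. SP1, which encodes the GC-box factor Sp1, was at 8.95 and 8.97. Subunits of NF-Y were not in the lists.

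The genes reported as partners or regulators of MVP also had small differences. Of 7 expressed genes in this list, 4 were below and 3 above the control, 0 passed 1.5-fold and the median was -0.01. The largest differences were those of PTPN11 (-0.09), the phosphatase SHP2, and COP1 (-0.07), a ubiquitin ligase, while IRF1, an interferon-response factor under the level filter, differed by -0.19. The sign of the list median turned to 0.02 after centring on the median, so the list has no direction. PARP4 has a family of related enzymes. Of 10 other expressed PARP genes, 7 were lower and 3 higher, 0 passed 1.5-fold, and the median of -0.05 became 0.00 after quantile normalization. PARP2 and PARP1, the nuclear polymerases of DNA break repair, had differences of -0.20 and -0.19, and PARP9, under the level filter, had -0.24. For telomerase, the other particle in which TEP1 was found, 5 of 7 expressed genes were lower, 0 passed 1.5-fold and the median was -0.14. NHP2, an H/ACA core protein, had the largest difference there (-0.31), followed by the telomerase RNA TERC (9.90 and 9.73).

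Transcripts of the proteins that bind, modify or degrade vault RNAs were close to the control in all 8 cases, with differences between -0.10 and 0.06. SSB, which encodes the La protein that binds the ends of new polymerase III transcripts, was at 11.43 in the control and 11.33 after SiO2-NP. NSUN2, the cytosine methyltransferase of vault RNAs, was at 9.69 and 9.59. DUSP11, a phosphatase that trims their triphosphate end, was at 10.52 and 10.42. The other 5 genes differed less. SRSF2, a splicing factor that binds VTRNA1-1, differed by 0.00 and DICER1, which can cut vault RNAs to small fragments, by 0.01. DIS3L2, an exonuclease of uridylated RNAs, differed by 0.06, and TUT4 and TUT7, the enzymes that add the uridines, by -0.06 and -0.02. The list median of -0.04 was near the -0.03 of all expressed genes, and 0 members passed 1.5-fold.

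The genes of RNA polymerase III, which makes the vault RNAs, were mostly slightly lower and none passed 1.5-fold. Of 9 expressed polymerase III subunits 8 lay below the control and the median was -0.12, led by POLR3K (10.49 and 10.12) and POLR3F (8.46 and 8.16). Of 16 expressed factors 13 did so, with a median of -0.05, against 59.8% of all expressed genes. The largest differences were those of GTF3A, the 5S rRNA gene factor TFIIIA (9.66 and 9.32), and SNAPC1, a subunit of the factor for U6-type promoters (8.22 and 7.95). Together 21 of 25 genes were below the control, but 15 were after centring on the median and to 14 after quantile normalization, which left medians of -0.03 and -0.02. MAF1, the repressor of RNA polymerase III, differed by 0.06.

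**Figure D3:**
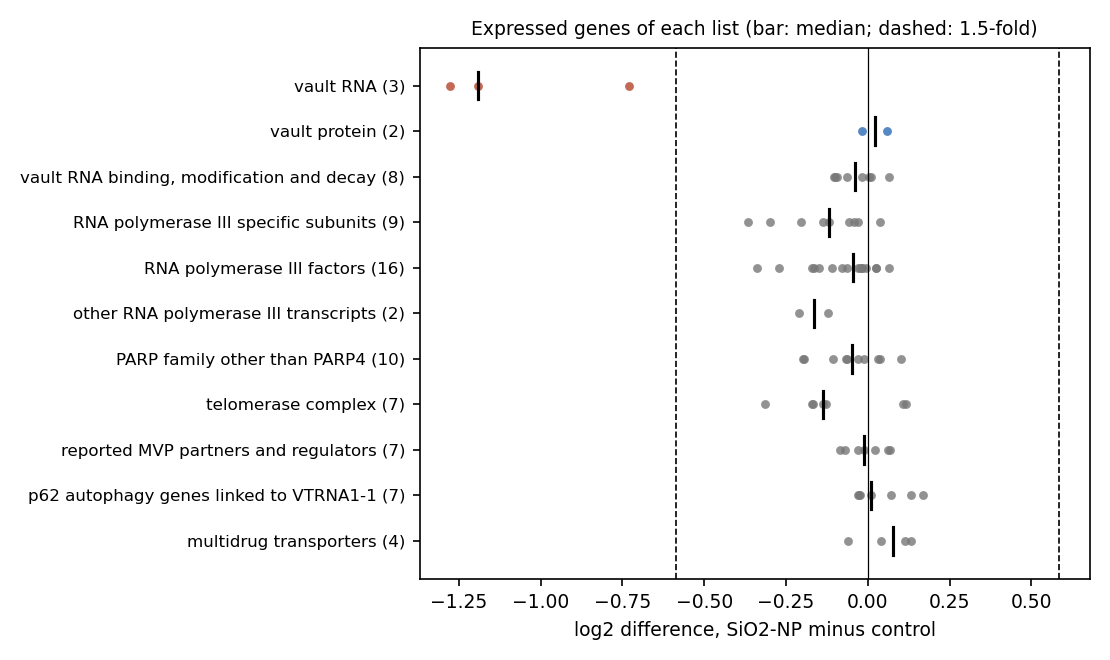
Log2 difference, SiO2-NP minus control (horizontal axis), of each expressed gene in the lists around the vault; numbers in parentheses count genes, bars mark medians and dashed lines 1.5-fold. Only the vault RNAs, in red, lie outside the dashed lines; the largest difference in the other lists shown is that of POLR3K at -0.37.

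The other RNA polymerase III transcripts that were expressed, RMRP and RPPH1, were less reduced than the vault RNAs. RMRP, the RNA of RNase MRP, was at 11.42 in the control and 11.21 after SiO2-NP, a difference of -0.21. RPPH1, the RNA of RNase P, was at 11.11 and 10.99 (-0.12). Of the dimmer transcripts under the level filter, the Y RNA RNY1 differed by -0.14 and the spliceosomal RNU6ATAC by 0.04. A probe shared by RN7SL1 and RN7SL2, the signal recognition particle RNAs, differed by -0.02. The probe of RN7SK, which controls the elongation factor P-TEFb and shares its probe with LINC01517, differed by -0.21. Of 16 transcripts in this list, 4 had a singly named probe and 2 of these, RMRP and RPPH1, were expressed. The lower of them, RMRP, lay 0.52 above VTRNA1-3 in its log2 difference, with no replicate behind the comparison. The protein RO60, which holds Y RNAs and carries a domain also found in TEP1, differed by -0.14.

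Expressed small RNAs of several other classes were also mostly lower on the SiO2-NP array, while the few expressed miRNA genes were mostly higher. Of 86 expressed small nucleolar RNAs (snoRNAs), which guide RNA modification, 82 lay below the control and the median was -0.32. All 7 expressed small nuclear RNAs (snRNAs), the class of the spliceosomal RNAs, lay below it, with a median of -0.30. Of 173 measured miRNA genes only 13 passed the level filter, against 86 of 175 snoRNAs, and those 13 had a median of 0.18. These signs held under quantile normalization and under centring, whether on the overall or a running median. Among the 109 expressed small RNAs other than the vault RNAs, 6 were at least 1.5-fold lower as deposited (5.50%), and all 6 were snoRNAs. Of these, SNORA14A (-0.60) and SNORD116-25 (-0.59) fell short of 1.5-fold after centring on the median of expressed genes (-0.03). Among these 109, 0 had a difference as low as that of VTRNA1-1 or VTRNA1-2. For VTRNA1-3 there were 2 as low, SNORA38B (-1.04) and SNORD116-29 (-0.80). Set against the median of these 109, the differences of VTRNA1-1, VTRNA1-2 and VTRNA1-3 were -0.91, -0.99 and -0.45, of which the last is under 1.5-fold. Transcript length was similar in part of the class: 17 expressed small RNAs of 88 to 98 nt, miRNA genes left out, had a median of -0.34 and a lowest value of -0.68. The part of a shift shared by small RNAs in the vault RNA result was not tested.

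**Figure D4:**
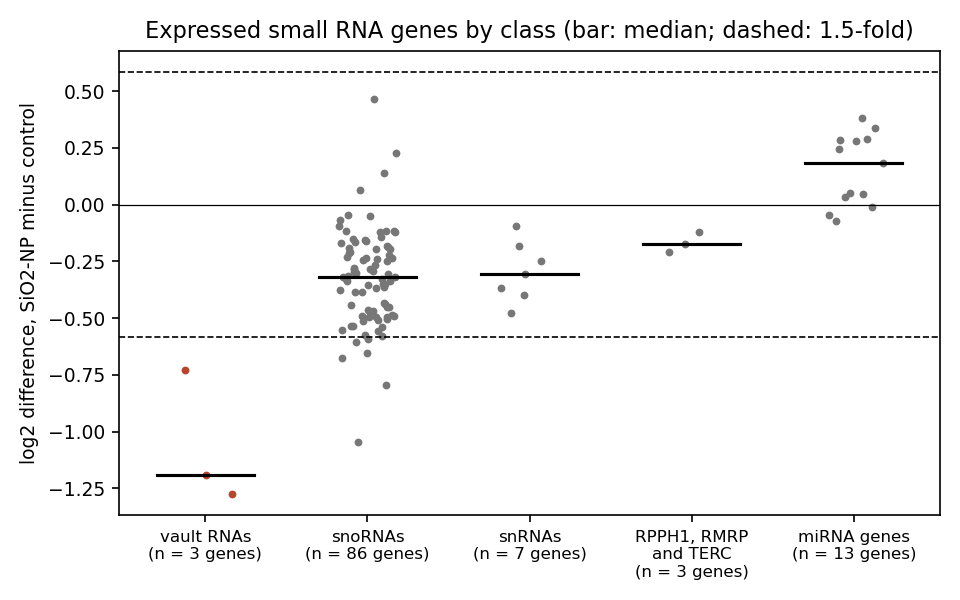
Log2 difference, SiO2-NP minus control (vertical axis), of each expressed small RNA gene by class, with the number of genes under each class; points are spread sideways for legibility, bars mark medians and dashed lines 1.5-fold. The vault RNA median of -1.19 lies below the medians of snoRNAs (-0.32), snRNAs (-0.30) and miRNA genes (0.18).

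The VTRNA1 genes lie together on chromosome 5, and the measured genes next to them did not share their difference. On one side, ZMAT2, a zinc finger protein of the spliceosome, was at 9.32 in the control and 9.12 after SiO2-NP. HARS2 and HARS1, the mitochondrial and cytoplasmic histidyl-tRNA synthetases, differed by 0.02 and -0.11. On the other side, the protocadherin genes PCDHA1, PCDHA2 and PCDHA3 differed by 0.13, 0.13 and 0.07, though PCDHA1 and PCDHA2 were under the level filter and the family shares exons. The 6 neighbours had a median of 0.05 and none passed 1.5-fold.

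**Figure D5:**
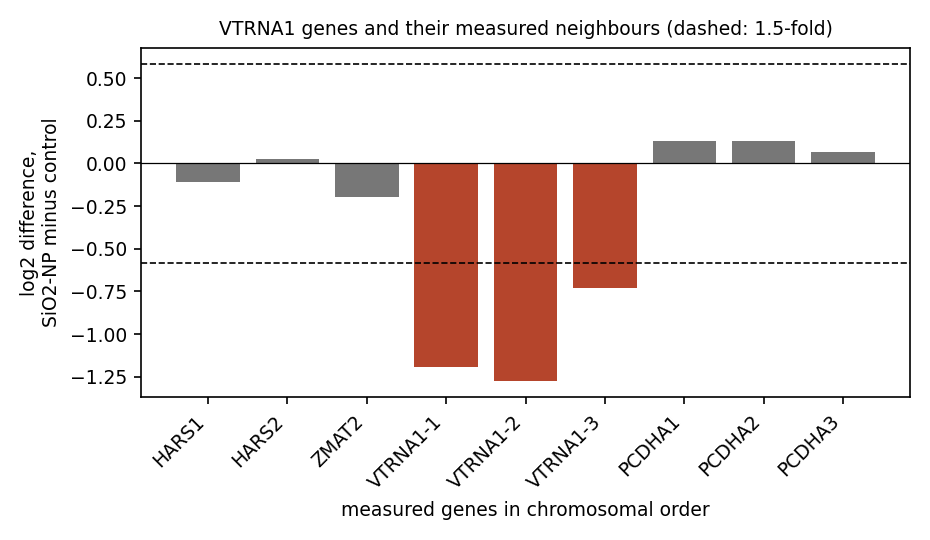
Bars give the log2 difference, SiO2-NP minus control (vertical axis), of the 3 VTRNA1 genes, in red, and of the 3 nearest measured genes on each side, in grey, in chromosomal order (horizontal axis, not to scale). The grey bars run from -0.19 to 0.13 and the red bars from -1.28 to -0.73.

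Genes tied to what vault components are known for were near the control as well. SQSTM1, which encodes p62, was at 10.47 in the control and 10.63 after SiO2-NP, a difference of 0.17. It was the largest among 7 expressed p62 and autophagy genes, of which 4 were higher and 3 lower, with a median of 0.01. After centring on the median 0 of the 7 were lower, after centring on a running median 2 were, and after quantile normalization 1 was. GABARAPL1, an autophagosome membrane protein, followed with 0.13. Of the multidrug transporters, 3 of 4 expressed genes were higher, with a median of 0.08. ABCC1 and ABCB1, drug efflux pumps, differed by 0.13 and 0.11. ABCG2 was under the level filter and differed by -0.39. In both lists 0 expressed genes passed 1.5-fold.

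The expressed genes with the pattern most like each member were found by distance over the 2 arrays (the square root of the summed squared differences in log2 intensity). VTRNA1-1 had ADH4, an alcohol dehydrogenase, as its closest gene, at a distance of 0.20, followed by SNORD116-29 (0.38) and ZNF273 (0.46). For VTRNA1-2 no gene came closer than 0.45, the distance of ZNF724, DEPDC1 and RAD51AP1. VTRNA1-3 was closest to NDUFB3, a subunit of respiratory complex I, at 0.04, then to PPID (0.11) and LRRCC1 (0.13). MVP had INHBB, CDPF1 and ABCA2 and PARP4 had SND1, PLOD1 and TRPC4AP within 0.02. Many genes resemble MVP and PARP4 in this way, and with 2 arrays such likeness carries little information.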

How the data were processed

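The deposited table holds 1 log2 intensity per probe (transcript cluster) and array; the log2 scale was read from its values, with medians of 6.65 (control) and 6.69 (SiO2-NP). Per the submitters' processing notes, the tools were RMA and MAS5, and it is unknown here which produced these values. With RMA, which equalises array distributions, a shift of nearly all transcripts would be invisible. Per the labels' protocols, a column kit yielded the total RNA and a whole-transcript kit amplified it.

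Of 33297 probes, 19460 had 1 gene symbol in the platform annotation, 1754 had several and 12083 had none there. Single-symbol probes were averaged per gene; each measured member had 1 probe. RefSeq (GRCh38.p14) gave symbols, gene lengths, RNA classes and gene order. The build behind the probes is not given in the sources used here, so no probe coordinates are printed. Members and lists were chosen with earlier results of these data known; the RNA classes by RefSeq type were added after seeing the values.

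Genes named are the members, every gene of the vault RNA binding list, polymerase III transcripts, the 2 largest differences of each list over its measured genes, 3 like patterns per member, 3 neighbours on each side, ACTB and GAPDH. Named after their values were seen were MTND2P28, MAF1, YBX1, SP1, COP1, PARP1, ABCB1, the genes on shared polymerase III probes, the snoRNAs past 1.5-fold and the genes beyond the 3 neighbours. The protein median was planned over 3 genes and rests on 2. Arrays give no read depth; their number limits the precision. Counting was tested on simulated data. Software was pandas 2.3.3 and NumPy 2.4.6 in Python 3.11.15, with figures from matplotlib 3.10.9.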

Additional observations from a re-analysis of the deposited data

How the results depend on the processing

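The differences of the 5 measured members were compared under centring on the median, centring on a running median by level and quantile normalization. They moved by less than 0.16, the SD of differences over expressed genes. The medians subtracted lay between -0.04 and 0.01, so centring could move the members only a little. Each member had 1 probe, so both other choices of probe could not change its value. Adding probes with several symbols left the members unchanged. VTRNA1-1 ran from -1.20 to -1.16, VTRNA1-2 from -1.28 to -1.23, VTRNA1-3 from -0.73 to -0.69, MVP from -0.03 to 0.01 and PARP4 from 0.06 to 0.11. The gap between RNAs and protein genes ran from -1.23 to -1.21. Centring on the median of expressed genes shifts RNAs and protein genes alike, so it could not change this gap. Relative to the other expressed small RNAs (chosen after seeing the data) VTRNA1-1, VTRNA1-2 and VTRNA1-3 were at -0.91, -0.99 and -0.45, and the gap was -0.93. The count of members past 1.5-fold was 3, and 0 with a level filter at the 75th percentile (8.75), which no vault RNA reaches. Over all genes, 61 were higher and 68 lower without the filter; 8 were lower at the 75th percentile; 1 was higher and 4 lower at 2-fold; with a running median 21 were higher, with quantile normalization 22; and 14 were lower without small RNAs. Fewer or more genes enter when a filter changes; for the rest the cause was not tested. Other pseudocounts were not run, since the table is on a log2 scale. No paired analysis was possible because there is only 1 array per group, and none could be left out.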

Other observations

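A gene a little farther from the vault RNAs had a difference of the opposite sign. DND1, which encodes an RNA-binding protein known from germ cells, was at 7.92 in the control and 8.50 after SiO2-NP, a difference of 0.58 that was just under 1.5-fold as deposited. It passed that threshold at 0.62 after centring on the overall or on a running median and at 0.63 after quantile normalization. It was the 4th measured gene on the ZMAT2 side and was named after its value was seen. Its neighbours WDR55 and IK differed by -0.20 and -0.03. Of the 6 snoRNAs past 1.5-fold as deposited, 3 belonged to the SNORD116 family (SNORD116-29, SNORD116-13 and SNORD116-25, at -0.80, -0.68 and -0.59). The copies of this family are near-identical, so their probes may not separate them. Its other expressed copies did not pass, with differences from -0.57 to -0.15. The remaining snoRNAs past 1.5-fold were SNORA38B (-1.04), SNORA60 (-0.65) and SNORA14A (-0.60). After centring on the median of expressed genes, SNORD116-25 and SNORA14A fell short of that threshold.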
